A study of Sorghum bicolor with 5 samples.

Results

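Leaf transcript levels of 6 sorghum genes were followed through 5 plants of 2 epi-F3 lines, with 1 library per plant. The 6 genes, taken by their identifiers from the 35567 genes in the count files, are the phytochromes *PHYA* (SORBI_3001G111500), *PHYB* (SORBI_3001G394400) and *PHYC* (SORBI_3001G087100) and the clock genes *LHY* (SORBI_3007G047400), *TOC1* (SORBI_3004G216700) and *GI* (SORBI_3003G040900). These names came with the list of identifiers and could not be checked here, since the count files hold identifiers only and the gene table at hand matched none of them. Epi-F3 lines are progeny of crosses between the inbred Tx430 and plants descended from an *MSH1*-RNAi parent that no longer carried the transgene, so that no library here is of unmodified Tx430. Epi-F3 low (line 15, the non-enhanced line) is represented by plants 1, 2 and 3 as replicates 1, 2 and 3, and epi-F3 high (line 68, the enhanced line) by plants 1 and 3 as replicates 1 and 2. The paper describes leaves of 3 plants for each line, but no plant 2 of epi-F3 high is among the 5 libraries. Young leaves of plants that the labels give as 4 weeks old were used, after growth in a greenhouse held at 28°C in the 14 h light period and at 22°C in the dark. The hour of harvest is not given in the sources used here, and each line is 1 selected family, so a difference between the lines is a difference between these families.

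Phytochromes are photoreceptors that switch between forms absorbing red and far-red light. In plants studied so far, phytochrome A accumulates in darkness and is broken down in light, while phytochromes B and C are more stable in light. In sorghum, *PHYB* is the maturity locus *Ma3* and *PHYC* is *Ma5*, and both delay flowering under long days. The circadian clock is a loop of transcriptional repressors, best known from Arabidopsis. There, *LHY* encodes a MYB factor that peaks around dawn, *GI* encodes a large protein that peaks in the afternoon and links the clock to flowering, and *TOC1* encodes a pseudo-response regulator that peaks in the evening and represses *LHY*. Since these genes peak at different hours, the ratio of a morning to an evening transcript within a library moves with the time at which a leaf was frozen.

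The libraries held 48372266 to 68979436 counts in genes, and 22302 to 24694 genes had at least 1 count. Levels are given as CPM, the count relative to the library's gene counts after TMM scaling, and levels of the 6 genes are compared between libraries and not with each other, since gene lengths were not used here. As a check of the tissue, 3 photosynthesis genes of the study's table, *PSAD2*, *PSAL* and *LHCB5*, stood at 559 CPM or more in every library. *LHB1B1*, a chlorophyll a-b binding protein, stood between 0.186 and 14.3 CPM. None of the 4 was at 0 in any library. Genes of dividing cells, *MCM2* to *MCM7*, summed to 25.9 to 47.1 CPM in 4 libraries and to 340.2 CPM in epi-F3 high replicate 2, with none at 0. The 44 genes of the study's table that are paired with organelle-encoded Arabidopsis genes summed to 84.8 to 262.9 CPM in the other 4 libraries and to 1219 CPM in epi-F3 high replicate 1, with 2 of the 44 at 0 in each epi-F3 low library and none at 0 in epi-F3 high. These lists were chosen by the study on these samples. In such bulk leaf samples, fewer cells of a type and less RNA per cell cannot be told apart.

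All 3 phytochrome genes were abundantly counted in every leaf, with 6203 counts or more per library. *PHYA* stood at 1239, 1385 and 958.5 CPM in epi-F3 low replicates 1, 2 and 3 and at 1081 and 1018 CPM in epi-F3 high replicates 1 and 2. The lines overlapped, with the highest and the lowest library both in epi-F3 low. *PHYB*, the receptor that dominates red light responses in light-grown plants, stood at 150.6, 180.3 and 111.0 CPM in epi-F3 low and at 127.9 and 115.5 CPM in epi-F3 high. Its libraries ranked in the same order as those of *PHYA*, and the lines overlapped again. *PHYC*, whose protein acts together with phytochrome B in rice, stood at 162.0, 208.6 and 151.6 CPM in epi-F3 low and at 173.1 and 129.3 CPM in epi-F3 high. Here the lowest library was epi-F3 high replicate 2. The 95% Poisson intervals of 2 plants of a line overlapped for none of the 3 genes. That of *PHYB*, for instance, ran from 108.4 to 113.6 CPM in epi-F3 low replicate 3 and from 176.8 to 183.9 CPM in epi-F3 low replicate 2.

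**Figure D1:**
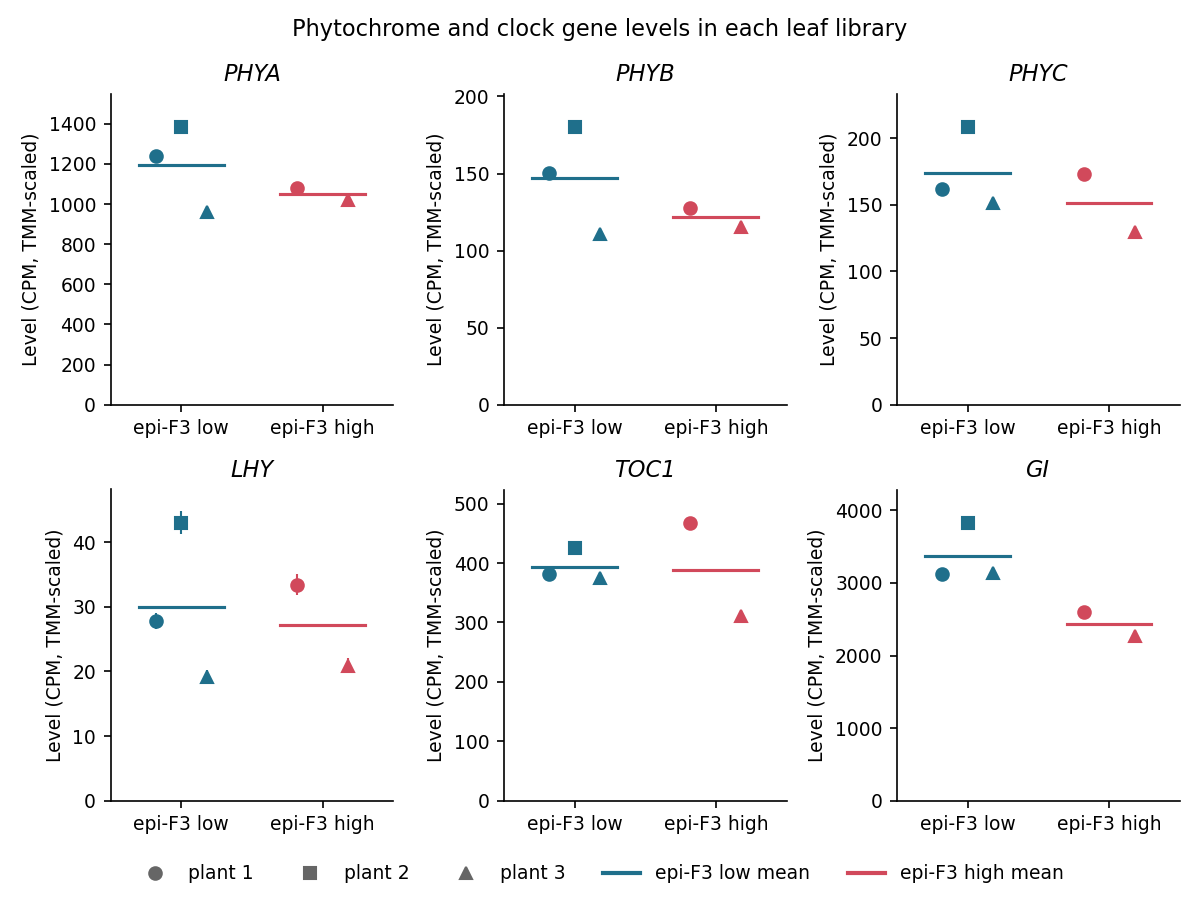
Level of each gene in each library, in TMM-scaled CPM on axes that start at 0, with a point per plant, a bar for the line mean and vertical lines for the 95% counting interval, which is often smaller than the symbol. Only in the *GI* panel, with 2274 to 2597 CPM in epi-F3 high and 3130 to 3829 CPM in epi-F3 low, do the lines not overlap.

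The make-up of the phytochrome pool differed between plants by at most 2.53 percentage points in the share of *PHYA*. *PHYA* took 79.9% (95% Clopper-Pearson interval 79.6 to 80.1%), 78.1% (77.8 to 78.3%) and 78.5% (78.2 to 78.8%) of the counts in the 3 phytochrome genes in epi-F3 low replicates 1, 2 and 3. In epi-F3 high it took 78.2% (77.9 to 78.5%) and 80.6% (80.3 to 80.9%) in replicates 1 and 2. The shares overlapped between the lines, at 78.8 ± 0.930% in epi-F3 low (SD, n = 3) against 79.4 ± 1.68% in the 2 epi-F3 high plants (SD; two-sided exact permutation test, p = 0.6, where the smallest possible p is 0.1). The difference, 0.61 percentage points, turned to -0.58 without epi-F3 high replicate 2. *PHYB* took 9.09 to 10.2% and *PHYC* 10.2 to 12.5% of these counts over the 5 libraries. The 2 epi-F3 high plants lay at opposite ends for *PHYC*, at 12.5% in replicate 1 and 10.2% in replicate 2. The shares are of counts and not of molecules, as gene lengths were not used.

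Among the clock genes, *LHY* had the widest range. It stood at 27.8, 43.0 and 19.1 CPM in epi-F3 low replicates 1, 2 and 3 and at 33.4 and 20.9 CPM in epi-F3 high replicates 1 and 2. The highest library was 2.25-fold above the lowest, both were of epi-F3 low, and the lowest library of each line was its plant 3. *TOC1* stood at 381.4, 425.0 and 375.6 CPM in epi-F3 low and at 467.6 and 310.0 CPM in epi-F3 high. The 2 epi-F3 high plants enclosed all epi-F3 low plants, and they differed by 0.59 on the log2 scale where the SD of the 3 epi-F3 low plants was 0.097. *GI* stood at 3130, 3829 and 3137 CPM in epi-F3 low and at 2597 and 2274 CPM in epi-F3 high. Every epi-F3 low plant thus stood above both epi-F3 high plants, and *GI* transcripts made up 0.248 to 0.359% of the gene counts of a library. The SD of log2 CPM over the 5 libraries was 0.481 for *LHY*, 0.222 for *TOC1* and 0.288 for *GI*, and 0.216, 0.290 and 0.253 for *PHYA*, *PHYB* and *PHYC*. Of all genes tested, 58.3% had a smaller SD than *LHY* and 24.5% a smaller one than *TOC1*, and their median was 0.385. Of the 11746 genes with a mean of at least 10 CPM, 88.5% had a smaller SD than *LHY* and 43.4% a smaller one than *TOC1*, and the median of these genes was 0.243. Above this level the share was 62.2% for *GI*, and 41.4, 62.7 and 52.9% for *PHYA*, *PHYB* and *PHYC*.

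Ratios of clock genes were used to ask whether the leaves had been taken at a like time of day. They need no library size, and since the length of a gene is the same in each library they can be compared across libraries, but without gene lengths or a time series they do not give the hour. The ratio of *LHY* to *TOC1* counts was 0.0728 (95% counting interval 0.0695 to 0.0762), 0.101 (0.0969 to 0.106) and 0.0509 (0.0480 to 0.0540) in plants 1, 2 and 3 of epi-F3 low, and 0.0714 (0.0678 to 0.0751) and 0.0673 (0.0637 to 0.0711) in epi-F3 high replicates 1 and 2. The 2 epi-F3 high plants had nearly the same ratio, with overlapping intervals, and lay inside the epi-F3 low range, which spanned 1.99-fold. Its mean log2 value was -3.79 ± 0.495 in epi-F3 low (SD, n = 3) against -3.85 ± 0.059 in the 2 epi-F3 high plants (SD; two-sided exact permutation test, p = 0.7). The difference of -0.06 turned to 0.19 without epi-F3 low replicate 2.

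The ratio of *LHY* to *GI*, a morning against an afternoon gene, was 0.00888, 0.0112 and 0.00610 in plants 1, 2 and 3 of epi-F3 low, against 0.0129 and 0.00918 in epi-F3 high replicates 1 and 2. The libraries spanned 2.11-fold and the lines overlapped (difference of log2 means 0.36, exact permutation test, two-sided, p = 0.4). With 1 plant left out this difference lay between 0.12, without epi-F3 low replicate 3 or epi-F3 high replicate 1, and 0.60, without replicate 2 of epi-F3 high. The ratio of *GI* to *TOC1*, the afternoon against the evening gene, was 8.21, 9.01 and 8.35 in epi-F3 low and 5.55 and 7.33 in epi-F3 high. Both epi-F3 high plants lay below every epi-F3 low plant, and the difference of the log2 means was -0.42 (3.09 ± 0.072 over the 3 epi-F3 low plants against 2.67 ± 0.284 over the 2 others, SD). The exact permutation test gave p = 0.1, the smallest p that 3 against 2 libraries allow, and 0.3 after Benjamini-Hochberg adjustment over the 3 ratios. The other 2 ratios had adjusted values of 0.7 (*LHY* to *TOC1*) and 0.6 (*LHY* to *GI*). The difference in *GI* to *TOC1* was -0.22 when epi-F3 high replicate 1 was left out, and -0.62 when replicate 2 of that line was. This ratio holds the *GI* counts, so it is not a reading separate from the *GI* level. The log2 fold change between the lines was -0.47 for *GI* and -0.02 for *TOC1*. The part of the harvest hour in these ratios was not tested, since the hours are not known.

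**Figure D2:**
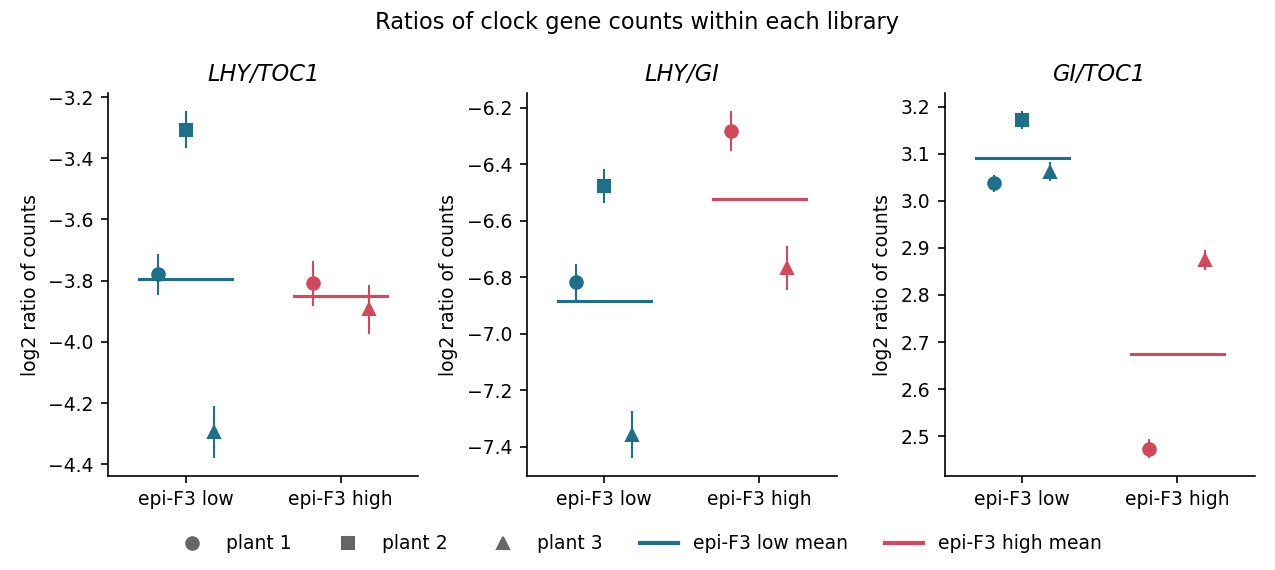
log2 ratio of counts of 2 clock genes within each library, with a point per plant, a bar for the line mean and vertical lines for the 95% counting interval; each panel has its own scale. *GI* to *TOC1* lies at 3.04 to 3.17 in epi-F3 low and at 2.47 and 2.88 in epi-F3 high, while the other ratios overlap between the lines.

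Between the lines, none of the 6 genes passed the test, though each had a lower mean in epi-F3 high. Genes were tested with edgeR's quasi-likelihood test on the 23098 genes whose counts summed to 10 or more, which include all 6, and a gene counted as called when its p after Benjamini-Hochberg adjustment was 0.1 or lower and its log2 fold change 0.5 or more in either direction. These limits called 1 gene, or 0.00433% of those tested. The paper gives the same limits for edgeR and reports far more differentially expressed genes, with more epi-F3 high plants described. Why the counts differ was not tested. *GI* had the largest difference of the 6, at 3365 ± 402 CPM over the 3 epi-F3 low plants and 2435 ± 229 CPM over the 2 epi-F3 high plants (SD). Its log2 fold change was -0.47 (standard error 0.323, 95% interval -1.22 to 0.29, adjusted p = 0.999 from edgeR). *PHYB* had -0.28 (95% interval -0.84 to 0.29), *PHYC* -0.20 (-0.75 to 0.34) and *PHYA* -0.19 (-0.845 to 0.47). *LHY* had -0.14 (-0.99 to 0.70) and *TOC1* -0.02 (-0.605 to 0.57). The intervals of all 6 include 0 and reach beyond 0.5 in at least 1 direction, so that this number of plants leaves differences of the called size undecided. The median log2 fold change of the 6 was -0.195, beside 0.02 over all genes tested.

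At an unadjusted p under 0.05 the quasi-likelihood test held 744 genes, 3.22% of those tested, and none of the 6. The exact test of edgeR called 51 genes (0.221%), DESeq2 68 (0.294%) and limma-voom 0, again with none of the 6 among them. The unadjusted p of *GI* was 0.189 from the quasi-likelihood test of edgeR, 0.0848 from its exact test, 0.103 from limma-voom and 0.0237 from DESeq2, where the adjusted p was 0.87. *GI* was the only one of the 6 genes without overlap between the lines. Of all genes tested, 16.8% did not overlap in either direction and 7.48% did so with both epi-F3 high plants lower. Of the marker sums, those of the photosynthesis and the organelle-paired genes did not overlap between the lines either. The study chose these marker genes on these samples, so their separation is not independent evidence. The 4 photosynthesis genes summed to 3760 to 7043 CPM in epi-F3 low and to 2164 and 3225 CPM in epi-F3 high, and the 44 organelle-paired genes to 84.8 to 221.5 CPM in epi-F3 low and to 1219 and 262.9 CPM in epi-F3 high. Their part in the *GI* difference and in the ratio of *GI* to *TOC1* was not tested. Without epi-F3 high replicate 2, the plant with the highest level of *MCM* genes, the log2 fold change of *GI* was -0.38, while leaving out replicate 1 of that line gave -0.57. *LHY* turned to 0.21 without epi-F3 low replicate 2, and leaving out epi-F3 high replicate 2 gave 0.15. *TOC1* turned to 0.24 without epi-F3 high replicate 2, to 0.08 without TMM scaling and to 0.04 without epi-F3 low replicate 2. The value for *PHYC* ran from -0.43 without epi-F3 high replicate 1 to -0.01 without replicate 2 of that line, and was -0.05 without epi-F3 low replicate 2. *PHYA* ran from -0.32 without epi-F3 low replicate 3 to -0.07 without replicate 2 of that line. *PHYB* ran from -0.44 to -0.10 when the same plants were left out.

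**Figure D3:**
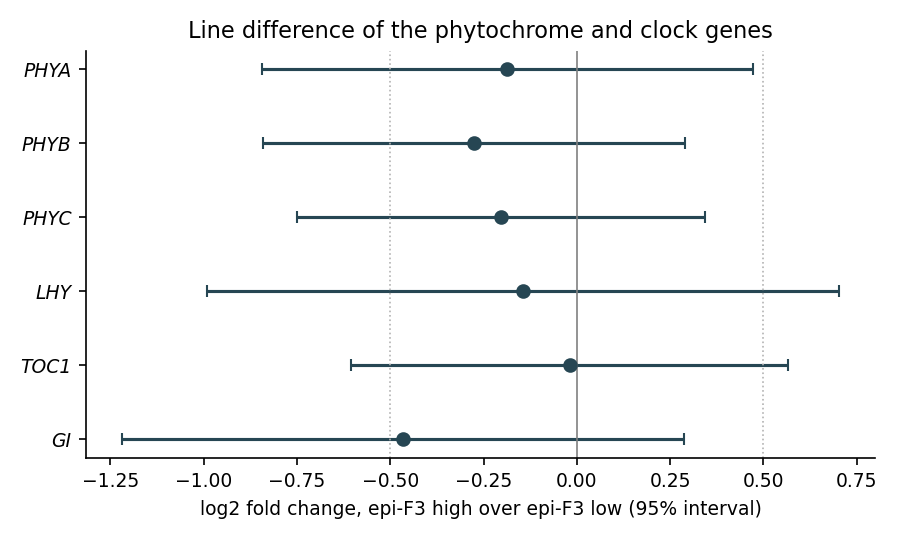
log2 fold change of each gene, epi-F3 high over epi-F3 low, from the quasi-likelihood fit with its approximate 95% interval; dotted lines stand at -0.5 and 0.5. All 6 estimates lie below 0, from -0.47 (*GI*) to -0.02 (*TOC1*), and all intervals include 0.

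The 2 lowest libraries were the same in 5 of the 6 genes, though the full order differed among them. In *PHYA*, *PHYB*, *PHYC*, *LHY* and *TOC1* the 2 lowest libraries were those of plant 3 of each line, epi-F3 low replicate 3 and epi-F3 high replicate 2. The same held for 14.6% of all genes tested, and for *PHYB*, *PHYC*, *LHY* and *TOC1* but not *PHYA* without TMM scaling (12.1% of genes). In *GI*, epi-F3 low replicate 3 was the second highest library. Plant 2, which is present only in epi-F3 low, was the highest library for every gene but *TOC1*, as it was for 17.0% of all genes tested. This ordering was noticed in the values and was not tested. What plant numbers stand for is not stated in the sources used here. Between the lines at a shared plant number, *GI* was lower in epi-F3 high by a log2 difference of -0.27 for plant 1 and -0.46 for plant 3. The same differences had opposite signs for *TOC1*, at 0.29 for plant 1 and -0.28 for plant 3, and for *PHYA*, *PHYB* and *PHYC*. For *LHY* they were 0.27 and 0.13.

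**Figure D4:**
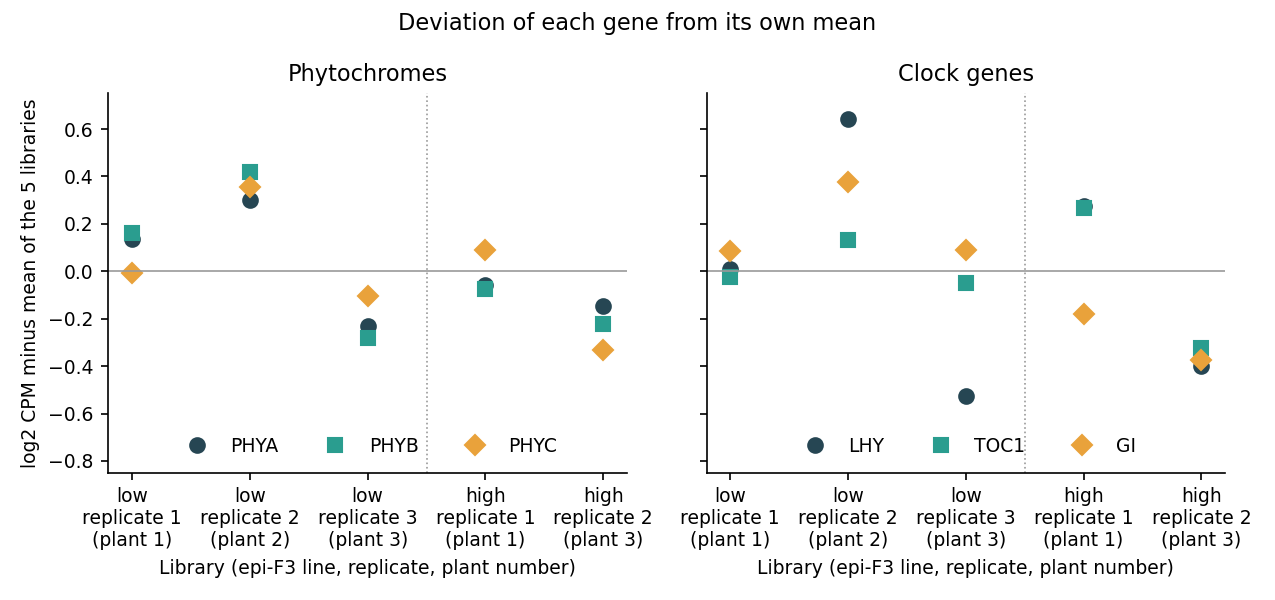
log2 CPM of each gene minus its mean over the 5 libraries, for the phytochromes (left) and the clock genes (right), with the dotted line between epi-F3 low and epi-F3 high. *LHY* runs from -0.53 to 0.64, and the plant 3 libraries of both lines lie below 0 for all genes except *GI* in epi-F3 low, at 0.09.

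Other readouts of these libraries are set beside this ordering. The 4 photosynthesis genes summed to 7043 CPM in epi-F3 low replicate 3, the lowest library for *PHYA*, *PHYB* and *LHY*, to 3827 and 3760 CPM in replicates 1 and 2 of that line, and to 2164 and 3225 CPM in epi-F3 high. Epi-F3 high replicate 2, the lowest for *PHYC*, *TOC1* and *GI*, held the highest sum of *MCM* genes, and epi-F3 high replicate 1, the highest for *TOC1*, that of the organelle-paired genes. The part of leaf composition in the levels of the 6 genes was not tested.

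Within the 6 genes, *PHYA* and *PHYB* had the most alike pattern, with a root mean square difference of 0.0688 between their mean-centred log2 CPM over the 5 libraries. The next pairs were *PHYC* with *TOC1* at 0.132 and *PHYA* with *PHYC* at 0.140, and the farthest apart were *LHY* and *GI* at 0.365. Among the 17328 genes with a mean of at least 1 CPM, those most like *LHY* by the same measure were SORBI_3002G034500 (0.0914) and SORBI_3005G218700 (0.0963). Those most like *TOC1* were SORBI_3001G063700 (0.0271) and SORBI_3008G062400 (0.0291), and those most like *GI* were ENSRNA049471439 (0.0148), a gene at 0.770 to 1.29 CPM, and SORBI_3003G094350 (0.0236). The sources used here give these IDs no name, and at the level of ENSRNA049471439 the counting error is large beside 0.0148. The gene nearest to *LHY* was farther from it than those nearest to *TOC1* and *GI* were from them. *LHY* also had the largest SD of the 6 genes (0.481), and the measure is not scaled to a gene's spread.

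Of the genes that the study's tables link to light, none was called here. These are 19 genes, of the term response to light stimulus except *PKS4* and *LZF1*, which are described by phytochrome or light, and all were tested. The study chose them on these samples, so that neither their directions nor their p values are independent evidence. The paper used edgeR with the same limits, and lists response to light stimulus among the enriched terms of its differentially expressed genes. It describes more epi-F3 high plants than the 2 used here, and why the calls differ was not tested. Of the 19, 10 had a positive and 9 a negative log2 fold change, 14 did not overlap between the lines (16.8% of all genes tested), and the median log2 fold change was 0.595, beside 0.02 over all genes tested, but -0.20 without epi-F3 high replicate 1. Before adjustment, 4 with a positive and 4 with a negative value had a p under 0.05, beside 3.22% of all genes tested. *GATA9* (SORBI_3004G337500), a GATA transcription factor, stood at 23.5, 19.7 and 21.0 CPM in epi-F3 low and at 44.8 and 31.6 CPM in epi-F3 high, a difference of 0.835 on the log2 scale (edgeR, adjusted p = 0.999). *PKS4* (SORBI_3003G121700) is paired with a phytochrome kinase substrate, a protein of phytochrome and phototropin signalling in Arabidopsis. It had 0, 0 and 1 counts in epi-F3 low and 9 and 8 counts in epi-F3 high, with an adjusted p of 0.999 from edgeR. The ratio of the counts pooled by line, relative to library size, was 28.0-fold, with a 95% counting interval of 4.39 to 1170. This interval leaves out the spread between plants. The aldo-keto reductase *AKR4C9* (SORBI_3009G161000) and the enolase *ENO2* (SORBI_3010G026925) had log2 fold changes of -0.77 and -0.725, both without overlap and both with an adjusted p of 0.999 from edgeR.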

How the data were processed

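RNA of young leaves was sequenced as paired-end reads. The authors used TrimGalore! 0.4.1 for trimming, STAR 2.7.3a for alignment to NCBIv3, with only reads of 1 alignment kept, QoRTs for counting and edgeR 3.26.8 for their own comparison. Each deposited file holds raw counts per gene. The strand setting is not given in the sources used here, so it is not known whether reads from the opposite strand were counted in a gene. The 5 summary lines of each file were left out. Reads in no gene equalled 3.94 to 7.65% of the gene counts, and reads marked ambiguous 0.465 to 0.592%.

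Genes whose counts summed to 10 or more were tested with edgeR 4.0.16 in R 4.3.3 (TMM, quasi-likelihood with defaults, no replicate block), and the code was tested on simulated data. Standard errors come from the F statistic and are approximate. Alternatives were other scalings, filters and tools (DESeq2 1.42.0, limma 3.58.1), replicate blocks and leaving out each library. Ratios and shares were compared by exact permutation over the 10 assignments of libraries. Intervals of levels, ratios, shares and the pooled *PKS4* counts cover counting error only. Those of the log2 fold changes come from the fit and include the spread between plants. Labels call the replicates biological. In the fits, p-values weigh a line difference against the spread between these plants, estimated with the help of the other genes tested. Neither these nor the permutation p-values cover further families.

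Genes named are the 6, the 4 of the light list with the lowest p, and 2 nearest in pattern to each clock gene; markers come from the study's tables. The members and lists were chosen with earlier results of these data known. A list of further light and clock genes had been planned from a RefSeq gene table, which matched 0 of the 35567 IDs, so it was not formed, and no sequence is shown.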

Additional observations from a re-analysis of the deposited data

How the results depend on the processing

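None of the 6 genes was called under any of the 16 alternatives, with adjusted p values from 0.728 to 1. *PHYA*, *PHYB*, *PHYC* and *GI* kept a log2 fold change below 0 in all 16, *GI* between -0.57 and -0.36. *LHY* was 0.20 with a replicate block by plant number and ran from -0.52 to 0.21 when 1 library was left out. *TOC1* was 0.0086 with that block, 0.0798 without TMM scaling, which moved the median of all genes from 0.02 to 0.13, and ran from -0.35 to 0.24 with 1 library left out. Leaving out 1 library moved the *LHY* to *TOC1* difference from -0.31 to 0.19 (0.19 with the replicate block by plant number, an alternative added after seeing the data), the *PHYA* share difference from -0.58 to 1.80 and the median of the light list from -0.20 to 0.738. The 1 gene called in the whole table became 68 with DESeq2, 51 with the exact test of edgeR, 0 with limma-voom, 7 with the newer quasi-likelihood form (added, as the planned legacy form is this version's default), 2 with robust settings, 12 with no filter, 0 with filterByExpr, 744 at an unadjusted p under 0.05, and 0 to 80 with 1 library left out. A replicate block by plant number called 70 genes and by replicate number 7, none of the 6. Deviations of plants that share a number correlated at 0.00244 and 0.34, and those of plants with different numbers at -0.34 to 0.312. The deviations of the 2 epi-F3 high plants mirror each other, so these values are not independent. With 2 pairs that share a number it stays undecided if the numbers mark pairs. Fits without an epi-F3 high plant hold 1 plant of that line, which is assumed to vary like the others. The causes were not tested. The lines are represented by 3 and 2 plants, and fits on thinned counts were not run.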

Other observations

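*PHYC* had 8399 counts in both epi-F3 high libraries. The 2 libraries are otherwise unlike: their rank correlation across genes was 0.957, the lowest of the 10 pairs, and 20 of the 15190 genes with over 100 counts in both had equal counts. In CPM the same count stands for 173.1 in replicate 1 and 129.3 in replicate 2, where both the gene counts (48372266 and 59493403) and the TMM factors (1.003 and 1.092) of the libraries differ.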
